A study of Homo sapiens with 2 samples.

Results

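The E2F1 peaks described here are those on the short arm of chromosome 6 whose centre lies between 25.5 and 33.5 Mb (hg19), a stretch that holds the largest human cluster of histone genes followed by the major histocompatibility complex (MHC). They number 364 of the 38084 peaks in the series, 245 from RB-depleted cells and 119 from control cells. The stretch up to 28.5 Mb, called the histone region below, held 139 of them and the stretch beyond it, called the MHC, held 225. Membership was set by position alone and not by score or by overlap between the lists.

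The data came from chromatin immunoprecipitation and sequencing (ChIP-seq) of E2F1 in LNCaP, a human prostate cancer cell line that responds to androgen. One line carried a short hairpin against the retinoblastoma protein RB (shRB) and the other a control hairpin (shCON). Both lines were kept in CDT, described by the series as a hormone-deficient condition, for 72 h before harvest, and both samples list the same pair of E2F1 antibodies. Each line gave 1 library, so no difference between the lines has a replicate check and no test was made. Whether a line is a single clone or a pool, and the level of RB in it, are not part of these data. The deposited lists hold peaks and scores without read counts, so the depth behind them is unknown.

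Histones are the proteins on which DNA is wound, and replication-dependent histone genes are transcribed in S phase, when new chromatin is built. E2F1 is a transcription factor that drives entry into S phase, and RB binds and represses it. The MHC is a gene-dense stretch with the class I and class II antigen-presenting molecules, the antigen transporters and many genes with general roles in chromatin, RNA and cell growth.

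RefSeq (GRCh38.p14) lists 55 protein-coding histone genes and 10 histone pseudogenes on chromosome 6 under the symbols searched here. The coding genes were 6 H1 (linker histone), 12 H2A, 15 H2B, 10 H3 and 12 H4 genes, the last 4 classes forming the nucleosome core. In RefSeq order they formed 3 runs. The first ran from H2AC1 to H4C8 with 34 coding histone genes, the second from H2BC11 to H2AC12 with 5 and the third from H2BC13 to H2BC17 with 16. Between the runs lay 84 and 77 other genes, among them 47 and 51 tRNA genes. Since the peaks are on hg19 and this annotation is on another build, no peak was assigned to a gene and no gene below is said to be bound.

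The promoters of these histone genes are shown because they are the sequences the histone region is known for, and because the motif of E2F is written in some of them. An E2F motif was counted where TTTCCCGC, TTTGGCGC, TTTGCCGC or TTTCGCGC occurred on either strand in the 300 bases from 250 before to 50 after a gene's start. It was present in 16 of 54 histone promoters, or 29.6%, against 3.31% of the 35116 promoters in the RefSeq table. The promoters came from 50 of the 55 genes. By class the motif was found in 5 of 11 H2A, 6 of 17 H2B, 1 of 10 H3, 4 of 10 H4 and 0 of 6 H1 promoters. The 16 matches lay at 11 distinct positions, since 5 positions fell within 2 promoters each. Of these, 4 were shared by an H2A and an H2B gene, which often face each other across one promoter, and 1 was counted from 2 starts of the same gene, H2BC12. The 120 bases before the start are given for the first H2A, H3 and H4 gene in RefSeq order with a match there, 5′ to 3′ on the gene's own strand, with the E2F motif in capitals.
H2AC11 (GRCh38.p14, plus strand): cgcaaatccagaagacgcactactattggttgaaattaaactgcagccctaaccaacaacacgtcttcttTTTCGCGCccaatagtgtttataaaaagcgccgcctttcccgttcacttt
H3C7 (GRCh38.p14, minus strand): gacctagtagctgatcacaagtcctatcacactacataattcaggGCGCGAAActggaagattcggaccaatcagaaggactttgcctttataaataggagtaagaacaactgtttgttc
H4C7 (GRCh38.p14, minus strand): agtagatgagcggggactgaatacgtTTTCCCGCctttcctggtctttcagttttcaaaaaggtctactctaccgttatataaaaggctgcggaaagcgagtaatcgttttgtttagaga
The motif began 50, 75 and 94 bases before the start in H2AC11, H3C7 and H4C7. Other elements known from histone promoters were searched as well. The TATA box, searched as TATAAA on either strand, was present in 66.7% of histone promoters against 11.5% of all, and CCAAT on either strand in 87.0% against 34.6%. CCAAT was in every H1, H2A, H2B and H3 promoter of the table but in 3 of 10 H4 promoters. Matches are letters in a window and do not show a bound site.

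The promoters of MHC genes and of neighbours of the histone genes were searched in the same way. No E2F motif was found in the promoters of the MHC class I genes (8 promoters), the class II genes (13), the antigen-processing genes TAP1, TAP2, TAPBP, PSMB8 and PSMB9 (7), the butyrophilin genes (5) or the zinc finger and SCAN genes of the histone region (19). Of 69 promoters of MHC genes with roles in cell growth, chromatin or RNA, such as MDC1, BRD2 and DAXX, 4 held one, or 5.80%. These groups are small and their counts lie near the 3.31% of all promoters, so nothing particular to them is read from the search.

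Both stretches held E2F1 peaks at a higher density than the rest of chromosome 6 in both lines. In shRB there were 30.7 peaks per Mb in the histone region (92 peaks, 95% Poisson interval 74.2 to 113) and 30.6 in the MHC (153 peaks, 130 to 179). In shCON the densities were 15.7 (47 peaks, 34.5 to 62.5) and 14.4 (72 peaks, 56.3 to 90.7). On the rest of chromosome 6, taken between its first and last peak, the density was 6.59 per Mb in shRB and 2.46 in shCON. Poisson intervals are given for the number of peaks. There were more peaks in shRB by a ratio of 1.96 (interval 1.38 to 2.78) in the histone region and 2.12 (1.61 to 2.81) in the MHC. Over the whole lists this ratio was 2.27 and on the rest of chromosome 6 it was 2.69 (2.40 to 3.02). The intervals reflect counting error alone and treat peaks as independent, which neighbours are not.

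**Figure D1:**
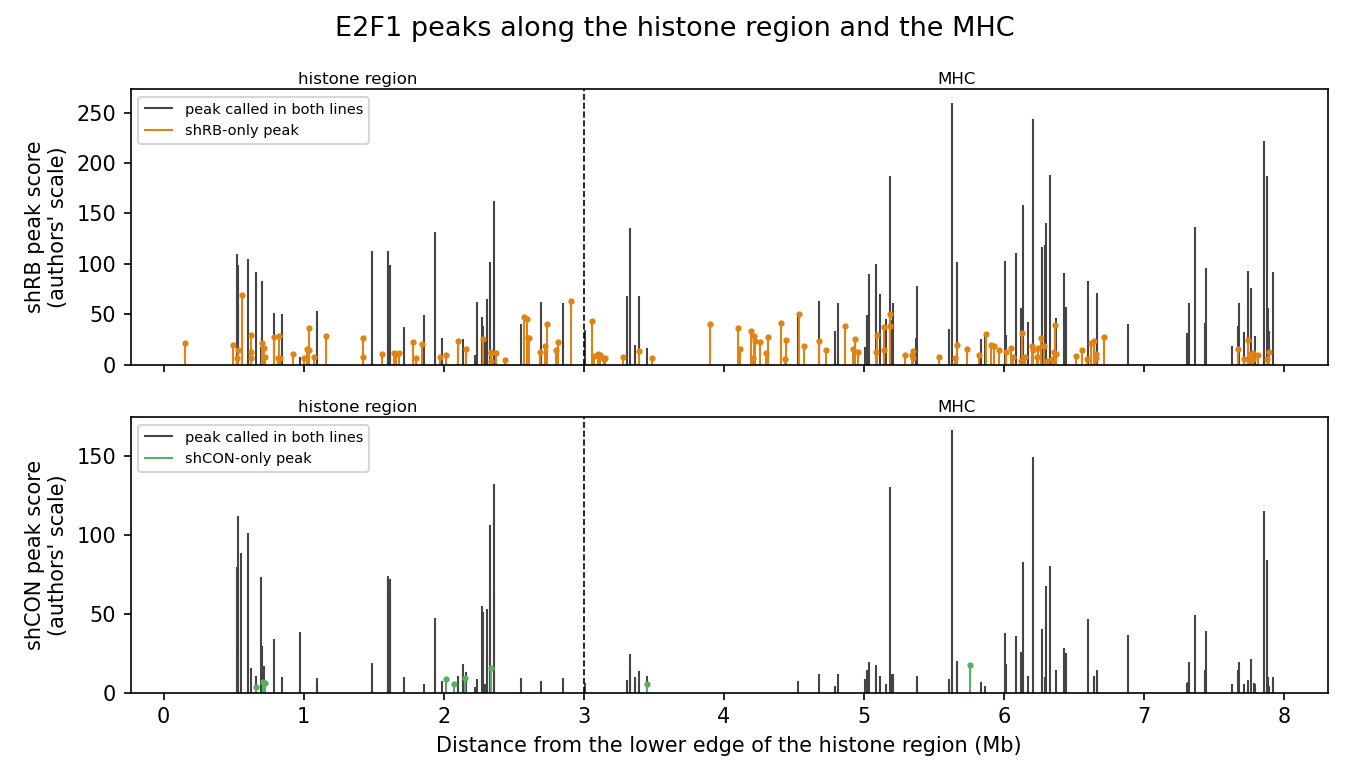
Each vertical line is 1 E2F1 peak of the shRB list (upper panel) or the shCON list (lower panel), placed by its centre in Mb from the lower edge of the histone region and drawn to the authors' peak score, whose scale differs between the panels. Coloured lines with a dot are peaks called in 1 line only, and the tallest peaks of both panels, with scores of 260 and 166, stand at the same site in the MHC.

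Along the stretch the peaks were unevenly spread. In the histone region the window chr6:26000001-26500000 held 28 shRB and 16 shCON peaks, and chr6:27500001-28000000 held 22 and 17. The first window of the region, chr6:25500001-26000000, held 2 and 0. In the MHC the richest window was chr6:31500001-32000000, with 32 shRB and 15 shCON peaks, followed by the last 500 kb, with 24 and 14. The longest stretch without a shRB peak was 423 kb, chr6:32383624-32806149, and no shCON peak lay there from 32383651 on. Stretches at least as long between neighbouring peaks of a chromosome numbered 1340 among the 26406 of the shRB list.

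**Figure D2:**
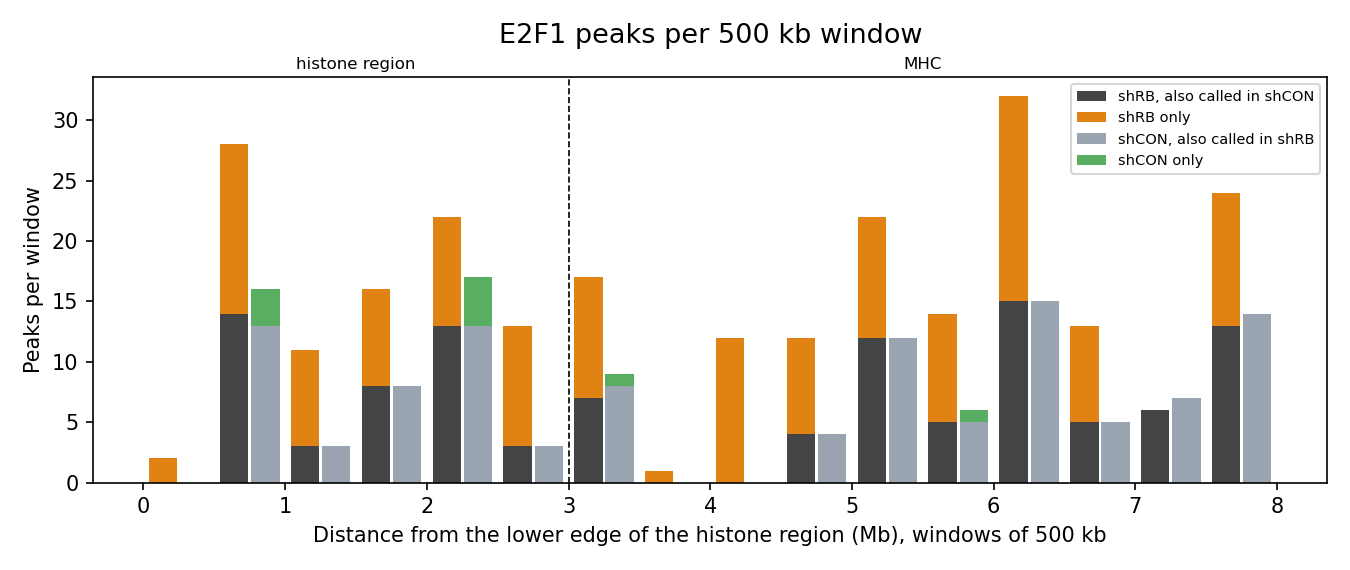
Bars give the number of E2F1 peaks per 500 kb window against the distance in Mb from the lower edge of the histone region, split into peaks called in both lines and in 1 line only. The histone region has 2 crowded windows, with 28 and 22 shRB peaks, and in the window that starts 4 Mb along, 12 shRB peaks stand beside 0 shCON peaks.

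The longest stretch without a shCON peak lay in the MHC, and shRB peaks were called in it. From chr6:28953590 to 30028921, a distance of 1075 kb, no shCON peak was called, and 14 shRB peaks lay there. Their scores ran from 5.67 to 41.6, and 7 of them were in the upper 50% of the shRB list. The strongest lay at chr6:29910092-29910722 (631 bp, score 41.6, rank 9204 of 26431) and at chr6:29404568-29404874 (307 bp, score 40.5, rank 9437). The second of these was 451 kb from the nearest shCON peak, the greatest such distance among the members. Over the whole shCON list 578 of 11628 stretches between neighbouring peaks were at least 1075 kb long. The stretch was chosen for its lack of shCON peaks, so every shRB peak in it is shRB-only. The share of shRB peaks in such stretches was not taken over the list. The 500 kb windows wholly inside it held 1 and 12 shRB peaks, where the other 500 kb windows of the MHC held 6 to 32. In the histone region chr6:26597289-26987907 (391 kb) likewise held no shCON peak and 3 shRB peaks.

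Here, and over the whole list, shared shRB peaks had higher median scores than shRB peaks called in that line alone. Sharing meant an overlap of 1 bp or more with any peak of the other line. In the histone region 51 of 92 shRB peaks were shRB-only, or 55.4% (Wilson interval 45.3 to 65.2), and in the MHC 86 of 153, or 56.2% (48.3 to 63.8). The background over the whole list was 61.6%. On the rest of chromosome 6 the share was 67.8% (64.9 to 70.5). With the shRB list cut to the length of the shCON list, 6 of 35 histone-region and 13 of 66 MHC peaks were shRB-only, or 17.1% and 19.7%, against 23.3% over that list. Peaks found in shRB alone had a median score of 14.4 in the histone region and 14.1 in the MHC, against 51.2 and 56.9 for shared peaks of the same list. Over the whole shRB list the medians were 12.6 for unshared and 65.9 for shared peaks. In the shCON list the medians were 6.96 for unshared and 26.9 for shared peaks in the histone region. In the MHC they were nearly equal, at 11.5 for the 2 unshared peaks and 11.6 for shared ones. Over the whole shCON list they were 7.83 for unshared and 13.5 for shared peaks.

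Among weak shRB peaks more had a counterpart here than the whole list gives. In the lower 50% of the shRB list by score, 9 of 46 histone-region peaks were shared, or 19.6% (10.7 to 33.2), and 9 of 75 MHC peaks, or 12.0% (6.44 to 21.3), against 6.37% over the list. In the upper 50% the shares were 69.6% (55.2 to 80.9) and 74.4% (63.7 to 82.7), against 70.3%. The numbers behind these shares are small and they were not tested.

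The strongest shRB-only peak of the histone region lay at chr6:26056159-26056898 (740 bp, score 68.9, rank 4897) and was 339 bp from a shCON peak. The next was far from any, at chr6:28411012-28411423 (412 bp, score 63.3, rank 5593), 59.7 kb from a shCON peak. It was followed by 3 peaks between chr6:28072316 and 28235182 with scores of 46.9, 45.5 and 40.3, which lay 23.4 kb, 43.3 kb and 41.6 kb away. Of the 5 strongest, 4 therefore lay in the last 500 kb of the region. That window held 13 shRB peaks, of which 10 were shRB-only and 3 shared, against 61.6% shRB-only over the whole list. With so few peaks, nothing particular to the window is read from this. In the MHC the strongest was at chr6:30034647-30035271 (625 bp, score 50.5, rank 7531), 5.48 kb from a shCON peak. It was followed by chr6:30687920-30688219 (score 49.8) and chr6:28554829-28555254 (score 43.1). The next places were held by the 2 peaks named above in the stretch without shCON peaks.

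Many shRB-only peaks of the histone region stood close to a control peak. Within 1 kb of one lay 11 of 51, or 21.6%, against a background of 5.89% of all shRB-only peaks. In the MHC 9 of 86 did so, or 10.5%. The median distance was 26.6 kb and 22.2 kb, against 53.8 kb over the list. Distances were not compared at equal peak density.

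Peaks called in the control line alone were few at an overlap of 1 bp. In the histone region 7 of 47 shCON peaks had no shRB counterpart, or 14.9% (7.41 to 27.7), and in the MHC 2 of 72, or 2.78% (0.765 to 9.57). The background over the shCON list was 9.66%, which lies inside the first interval and just outside the second. Their number depends on how a counterpart is defined. When the overlap had to cover 50% of both peaks, 17 histone-region and 31 MHC peaks had none, or 36.2% and 43.1%, so that the MHC share was the higher, against 48.0% over the list. With lists of equal length they numbered 18 and 16, or 38.3% and 22.2%, against 2336 of all 11653. With centres within 200 bp they numbered 13 and 10, or 27.7% and 13.9%, against 25.1%. The peaks named next are those without a counterpart at 1 bp. The strongest of the 7 lay at chr6:27834160-27834459 (300 bp, score 15.7, rank 4770 of 11653), with a shRB peak 194 bp away. Next came chr6:27652214-27652457 (score 9.29) and chr6:27513416-27513646 (score 8.77), 2.80 kb and 2.67 kb from a shRB peak. The other 4 were weak: chr6:26205511-26205715 scored 6.96, chr6:26224103-26224365 scored 5.95, chr6:27573342-27573568 scored 5.24 and chr6:26158275-26158474 scored 3.22. In the MHC the 2 peaks were chr6:31261104-31261375 (272 bp, score 17.6, 21.0 kb from a shRB peak) and chr6:28949886-28950088 (203 bp, score 5.36, 3.24 kb away).

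Histone-region peaks stood high in the control list and not in the RB-depleted list. Of the 47 shCON peaks there, 15 were in the upper 10% of that list by score, or 31.9% (20.4 to 46.2), where the background is 10.0% by definition. Of the 92 shRB peaks, 9 were in the upper 10% of theirs, or 9.78% (5.23 to 17.6). In the MHC both shares were 11.1%, with 8 shCON and 17 shRB peaks. The 15 control peaks lay in 3 windows, with 5 in chr6:26000001-26500000, 4 in chr6:27000001-27500000 and 6 in chr6:27500001-28000000. Of the members in the upper 10%, 26 in shRB and 23 in shCON, none was called in 1 line only, and over the whole lists 10 of 2643 and 11 of 1165 were.

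The same difference was seen at single sites. To set the lists on an equal footing, sites where 1 shRB peak met 1 shCON peak were ranked by score within each list, among the same 9712 sites. A site's place is given as a percentage from the top, so a low value is a strong site. The histone region had 39 such sites and the MHC 61. The median place of the histone-region sites was 25.8% in shCON and 67.1% in shRB, and that of the MHC sites was 58.8% and 60.4%. Placed higher in shCON were 29 of the 39 histone-region sites, or 74.4% (58.9 to 85.4), against a background of 46.8%, and 36 of the 61 MHC sites, or 59.0% (46.5 to 70.5). The median site of the histone region was placed 14.8 percentage points higher in shCON. In the MHC this value was 0.813 points and over all sites it was -0.803.

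Large shifts were frequent in the histone region in one direction. There 15 of 39 sites, or 38.5% (24.9 to 54.1), were placed at least 25 points higher in shCON, against a background of 11.0%. In the opposite direction 4 sites, or 10.3% (4.06 to 23.6), were placed at least 25 points higher in shRB, against 11.1%. The MHC had 8 sites, or 13.1% (6.80 to 23.8), and 5 sites, or 8.20% (3.55 to 17.8). A site in the upper 25% in shCON cannot be placed 25 points higher in shRB. Of the 39 histone-region sites, 17 stood in the upper 20% in shCON, against 1942 of all 9712. The 10.3% and 11.1% therefore rest on unlike shares of sites open to such a shift. With the shRB list cut to its 11653 strongest peaks, the histone-region share fell to 24.1%, against 10.5% over all sites. Across the 39 sites the order by score in the lists was related with a Spearman rho of 0.39, across the 61 MHC sites with 0.76 and across all 9712 with 0.70, as descriptions, since neighbouring sites are not independent.

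**Figure D3:**
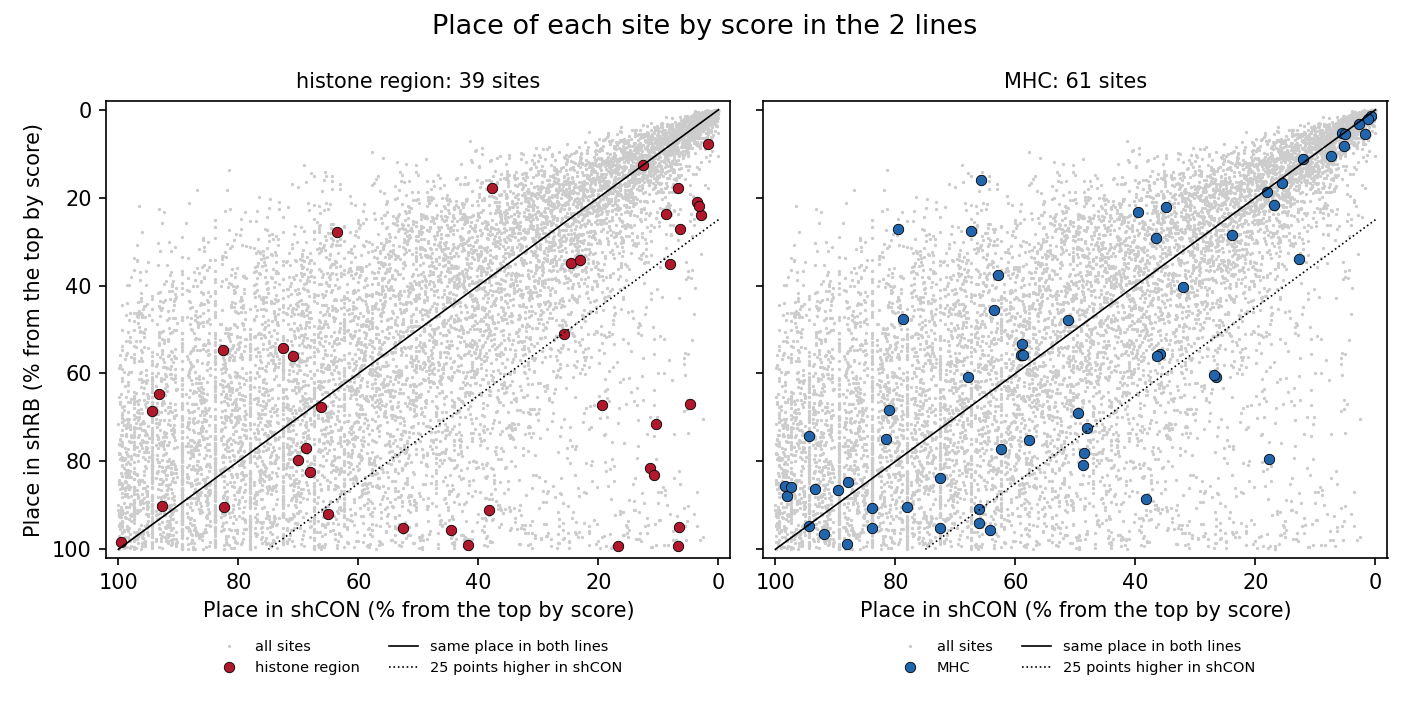
Each point is a site where 1 shRB peak met 1 shCON peak, placed by its percentage from the top by score in shCON (horizontal) and shRB (vertical), with the strongest sites at the upper right and all 9712 sites in grey. In the left panel 15 of the 39 histone-region sites lie on or below the dotted line, which marks 25 points higher in shCON, while in the right panel the 2 leading MHC sites lie within 1 point of the diagonal.

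The sites that shifted most lay in 3 windows of the histone region. Of the 15, 6 were in chr6:26000001-26500000, 1 in chr6:27000001-27500000 and 8 in chr6:27500001-28000000. The largest shift was at chr6:27113742-27113950, a shRB peak of 209 bp with a score of 7.31 (rank 22680). Its shCON counterpart, chr6:27113711-27114121, was 411 bp wide with a score of 71.8 (rank 671). The site stood at 99.2% in shRB and 6.70% in shCON. A shRB peak of score 99.2 lay within 1 kb of it, and when each site took the highest score within 1 kb, its shift fell from 92.5 to 17.1 points.

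The shift at chr6:27860632-27861102 fell likewise, from 26.9 to 6.12 points, and the other 13 stayed at 25 points or more. At chr6:26197159-26197843 the shRB score was 18.0 (rank 15248) and the shCON score 73.4 (rank 651), a shift of 88.4 points. The peak at chr6:26474366-26474565 was 200 bp wide in shRB, equal to the smallest width in the list, with a score of 7.27. In shCON it was 357 bp wide with a score of 38.1, and the shift was 82.4 points. Another 3 sites, in the window chr6:27500001-28000000, had similar values. They lay at chr6:27775426-27776348, chr6:27782397-27782737 and chr6:27807533-27807835, with shRB scores of 47.2, 38.0 and 36.3 and shCON scores of 54.7, 51.2 and 53.1. Their shifts were 61.1, 70.1 and 72.3 points. With the highest score within 1 kb of each site, 33.3% of histone-region sites were still at least 25 points higher in shCON, against 10.8% over all sites.

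The strongest sites of the histone region were called in both lines. The first in both lists was chr6:27862039-27862470 in shRB, 432 bp wide with a score of 162 (rank 768), and chr6:27862066-27862529 in shCON, 464 bp wide with a score of 132 (rank 170). It stood at 7.71% in shRB and 1.70% in shCON and was the only histone-region site in the upper 10% of the paired sites in shRB, where shCON had 11. The next shCON peaks were chr6:26032175-26032623 (score 112), chr6:27832864-27833284 (106), chr6:26103913-26104421 (101) and chr6:26055369-26055819 (88.3). In shRB the first was followed by chr6:27440459-27441330 (score 132), chr6:26987660-26988249 (113), chr6:27100350-27101157 (113) and chr6:26021591-26022222 (110). Only the first site was thus among the 5 strongest of the region in both lists. The last of the shRB peaks and its neighbour chr6:26021271-26021488 (score 12.2) both lay under 1 shCON peak, chr6:26021356-26022041 (686 bp, score 79.7, rank 574).

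A minority of histone-region sites was placed higher in the RB-depleted line. They included chr6:26156378-26157418, where the shRB peak was 1041 bp wide with a score of 91.8 and the shCON peak 321 bp with a score of 10.5, a shift of -35.9 points. The others past 25 points were chr6:26596045-26596424 (-28.7), chr6:28192840-28193380 (-27.9) and chr6:27356331-27356956 (-25.8). None of these 4 was in the window chr6:27500001-28000000.

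The leading MHC sites had nearly the same place in both lines. The leading site of the MHC was chr6:31125892-31126597 in shRB (706 bp, score 260, rank 137) and chr6:31125962-31126533 in shCON (572 bp, score 166, rank 82). The second was chr6:31707347-31708039 (693 bp, score 244) and chr6:31707353-31707991 (639 bp, score 149). Each differed by under 1 point between the lines, at 0.571 and 0.813. The next by shRB score were chr6:33359058-33359940 (222), chr6:31830404-31831184 (188) and chr6:33377861-33378366 (187), with shifts of 0.525, -0.278 and 0.422 points. After the 2 leading sites the strongest shCON peak was chr6:30684833-30685574 (742 bp, score 130), whose shRB peak was 745 bp wide with a score of 187, a shift of 3.71 points. These sites were chosen by the scores that give their places. A site near the top in 1 list can be placed only slightly higher in the other.

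Large shifts occurred at other MHC sites. The largest towards shCON was at chr6:32383265-32383623, with scores of 40.3 in shRB and 36.3 in shCON and a shift of 61.6 points, at the edge of the 423 kb stretch. It was followed by chr6:31515199-31515559 with 50.3 points. The largest towards shRB were at chr6:33239289-33240113 (scores 92.9 and 7.68, -52.3 points), chr6:31795099-31795753 (119 and 10.0, -49.8) and chr6:33421930-33422610 (92.2 and 9.74, -39.8). The second of these was strong in shRB, at rank 1593 and within the upper 10% of the list.

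The shRB peak was the wider at most paired sites of both stretches. It was the wider in 29 of 39 histone-region sites, or 74.4% (58.9 to 85.4), against a background of 95.1%. In the MHC it was the wider in 59 of 61, or 96.7% (88.8 to 99.1), and on the rest of chromosome 6 in 97.6% (95.4 to 98.8). The median width in the histone region was 461 bp in shRB and 357 bp in shCON, with a median difference of 125 bp. In the MHC it was 659 bp and 378 bp, with a median difference of 214 bp, and over all sites that difference was 273 bp. The control peak was fully contained in the shRB peak at 46.2% of histone-region sites, 80.3% of MHC sites and 79.7% of all sites.

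**Figure D4:**
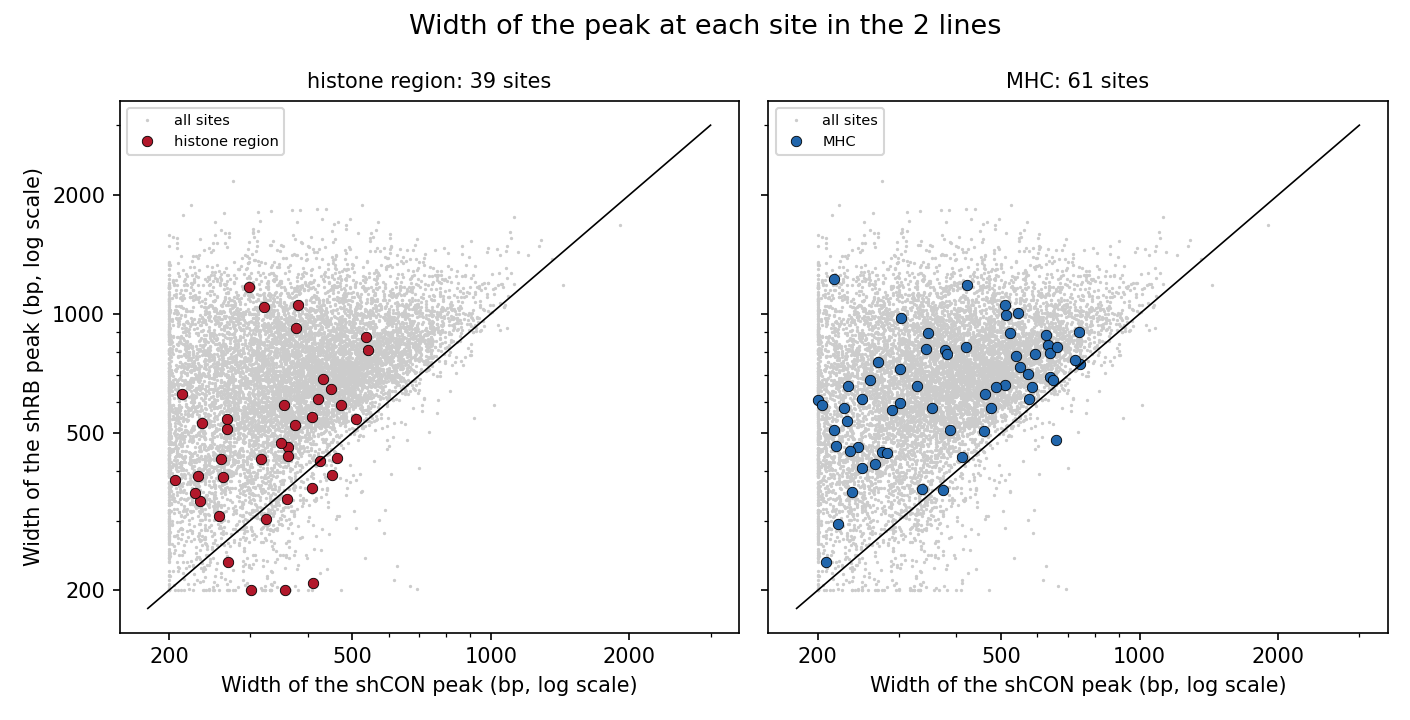
Each point is a site where 1 shRB peak met 1 shCON peak, by the width of its shCON peak (horizontal) and its shRB peak (vertical) in bp on log axes, with all 9712 sites in grey and the line of equal width. Of the 39 histone-region sites 10 lie below the line, where the shCON peak is the wider, and of the 61 MHC sites 2 do.

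Sites strong in the control line differed less in width, with a median difference of 182 bp in the upper 20% of paired sites in shCON. Sites of that class were therefore also compared. Among those 1942 sites 92.0% had the wider peak in shRB. The 17 histone-region sites of that class had the wider peak in shRB in 10 cases, or 58.8% (36.0 to 78.4). The 14 MHC sites gave 13, or 92.9% (68.5 to 98.7). At least 25 points higher in shCON were 9 of the 17 histone-region sites, or 52.9% (31.0 to 73.8). In the MHC 1 of 14 was, or 7.14% (1.27 to 31.5), and over the 1942 sites 10.2%. The class was chosen by its place in shCON, so no site of it could be placed 25 points higher in shRB. Narrower and at least 25 points lower in shRB were 7 of the 39 histone-region sites, or 17.9%, against 2.80% of all sites. These shares rest on 1 library per line and were not tested.

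Other windows of the genome showed shifts of like or larger size. Among 350 windows of 1 Mb with at least 8 paired sites, chr6:27000001-28000000 had the sixth largest median shift towards shCON, at 18.6 points over 21 sites, and chr6:26000001-27000000 the seventh, at 17.3 over 15. The largest were on chromosome 16 (46000001 to 47000000, 67.8 points) and chromosome 10 (42000001 to 43000000, 62.8 points), with 11 sites each. The 2 windows with enough sites that lie wholly in the MHC stood at places 87 and 308. Histone genes of one class resemble each other closely in their coding sequence, and how reads that match several copies were treated is not given in the sources used here. What part such reads had in these shifts was not tested.

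A few sites were divided differently between the lines. In the MHC 4 shRB peaks each spanned 2 shCON peaks, at chr6:28831348-28832255 (908 bp), chr6:32163203-32164462 (1260 bp), chr6:32939325-32940214 (890 bp) and chr6:33290401-33291532 (1132 bp). In the histone region 0 of 92 shRB peaks did, against 4 of 153 in the MHC. Over the whole shRB list 395 of 26431 peaks met 2 or more shCON peaks. The reverse, a shCON peak over 2 shRB peaks, occurred once in each stretch, at the histone-region site given above and at chr6:32145445-32146228 (784 bp, score 10.3). Over the shCON list 17 of 11653 peaks met 2 or more shRB peaks. These counts are too small to set the stretches apart from the lists or from each other.

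At the edges of the stretches few peaks were near enough to change a count. The peaks closest to the edge at 25.5 Mb were a shRB peak 9.62 kb below it (score 17.5) and one 153 kb above it (score 21.4), and the first shCON peak inside was 522 kb away. At 28.5 Mb the shRB peaks on either side had scores of 63.3 and 34.4, and the shCON peaks 9.05 and 6.34. At 33.5 Mb the last shRB and shCON peaks inside had scores of 92.2 and 9.74, and the first outside 29.4 and 2.87.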

How the data were processed

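E2F1 ChIP-seq peaks of 1 shRB and 1 shCON library were used, each with 5 columns and no header. Reads were processed with Bowtie and MACS2 on hg19, per the submitters' processing notes, without versions or settings. The fifth column holds a score per peak that the authors deposited, on a scale they do not state, used here only to order peaks within a list. For depth, threshold and control library the sources used here give no value.

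Peaks were placed by their centre, starts were converted to 1-based, and overlap meant at least 1 bp. Intervals are 95% Wilson (shares), exact Poisson (numbers) and normal on the log scale (ratios), and cover counting over peaks only. Functions passed 6 of 6 checks, mostly on 1000 simulated peaks. Tools were Python 3.11.15, numpy 2.4.6, pandas 2.3.3, scipy 1.17.1 and matplotlib 3.10.9.

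The members, lists and comparisons were chosen with earlier results of these data known. Site places, widths and shifts at sites strong in shCON, windows and stretches without peaks were added once the lists were known. The plan named histone genes with a peak at their promoter. That was not made, because the gene tables at hand are on GRCh38. For the other named peaks, the rule took the 5 strongest of each list, the 5 strongest shRB-only peaks, every shCON-only peak and those beside each edge. Alternatives run were lists cut to their upper 50%, equal list lengths, other overlap rules and membership by any overlap.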

Additional observations from a re-analysis of the deposited data

How the results depend on the processing

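No paired analysis was possible because each line had 1 library. Of 54 alternative values, 40 stayed within the interval of the reported one and 14 did not. With the shRB list cut to the length of the shCON list, the share with a partner in the histone region and the MHC was 82.9% and 80.3% of shRB peaks and 61.7% and 77.8% of shCON peaks, and the ratio of peak numbers, shRB over shCON, was 0.745 and 0.917. These follow in part from the shorter shRB list. The share of histone-region sites placed at least 25 points higher in shCON was then 24.1%. When the overlap had to cover 50% of both peaks, partners were found for 32.6% and 26.8% of shRB peaks and 63.8% and 56.9% of shCON peaks. The median score and width of shared shCON peaks in the MHC were then 18.2 and 487 bp. With centres within 200 bp, 86.1% of shCON peaks in the MHC had a partner. The median shift of histone-region sites was 11.5 to 23.1 points, and 66.7% to 79.3% had the wider peak in shRB, over the alternatives run, which were added after the data were seen. Alternatives for gene promoters were not run. Depth is unknown, so a site without a call is not shown to be unbound.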
